A study of Mus musculus with 4 samples.

Results

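This report describes 40 mouse genes of mitosis and chromosome segregation in a Th1 T cell clone, at rest and after it had been made anergic. The genes were chosen by name for their role in cell division, not by their values, though earlier results of these data were known. Of the 40, 37 had a probe set that the array's annotation lists under their symbol alone, out of 8251 such genes in all. No such probe set was listed for Ccnb1, Cdc25b and Bub1b, which are not analysed here. A gene's values are those of whichever probe set had the highest mean log2 value over the 4 arrays, and 26 of the 37 passed the filter on low values and were tested.

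When a cell divides, cyclins bind the kinase CDK1 and drive it into mitosis, the checkpoint holds the chromosomes until each is attached to the spindle, and the anaphase-promoting complex then releases them. Most of the genes are transcribed in waves that peak in the G2 phase and mitosis, so their transcripts are widely used as a sign of cycling cells. T cell anergy is a state of poor response, above all of poor interleukin 2 production and poor proliferation, to a stimulus that would otherwise activate the cell.

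The data are intensities on 4 arrays, 2 of the normal, quiescent clone (control) and 2 of the clone after plate-bound anti-CD3 antibody had made it anergic. The labels give no strain, antibody dose, time of treatment or time of rest, and do not say how many clones were used or whether a group's arrays are separate cultures. The p-values therefore rest on the spread among the arrays alone, and that spread may be technical. The T cell genes Cd4 (3942 to 5106 on the 4 arrays) and Cd3e (5974 to 10102) had signal on every array, and Cd8a, a gene of the other main T cell class, lay between 6.2 and 18. The geometric mean of 9 bacterial spike-in probe sets set control array 2 apart, at 1972 against 870.4 to 1014 on the other arrays. The summed markers of T cells, B cells, macrophages with dendritic cells, granulocytes with mast cells, and red cells with platelets overlapped between the groups. Those of 3 markers of other lymphocytes did not, at 60.9 and 65.8 in control and 31.3 and 59.9 in anergic cells. Nor did those of 6 fibroblast and stroma markers, at 3459 and 4468 in control and 5884 and 5958 in anergic cells. Lum had the highest values among them on every array, at 1674 and 2519 against 4399 and 3752, and weighs most in these sums. The 6 had no common direction. Lum, Dcn and Pdgfra were higher in anergic cells without overlap, Col3a1 was lower without overlap, and Col1a1 and Col1a2 overlapped. For the 10 macrophage and dendritic cell markers the sums were 1686 and 2290 in control and 1797 and 2630 in anergic cells. Among them Lyz2 was at 129.1 and 73.3 in control against 11.7 and 11.4 in anergic cells, while Cd68 passed the test (log2 difference 2.31, limma adjusted p = 0.0103; 0.0598 and 0.0628 without anergic array 1 and 2). Cd68 has 2 probe sets. With the mean of all probe sets of a gene, 3 macrophage and dendritic cell markers were tested and 0 passed in limma. The part of cells other than T cells in the values below was not tested.

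Many of the genes share a feature of sequence that the choice by name did not use. It is known from genes of this kind, so a high share among them is not an independent result. The cell cycle genes homology region, CHR, with the letters TTTGAA, is the element through which the MuvB complexes repress such genes in resting cells and activate them in dividing ones. RefSeq promoters (GRCm38.p6, 250 bases before to 50 after the gene's start) were at hand for 30 of the 40 genes. TTTGAA was found on either strand in 20 of the 30 (66.7%), against 20.2% of 27025 genes with a promoter of the same length. From 100 bases before to 50 after the start it was in 19 of the 30, or 63.3%, against 9.23% of the 27025 genes. Among genes tested here it was in 14 of the 19 mitosis genes with a promoter (73.7%) and in 6.23% of 4528 genes. CCAAT, the letters bound by NF-Y, was found on either strand in 25 of the 30 (83.3%), against 41.1% of all. The E2F letters TTTGGCGC or TTTCCCGC were in 0 of the 30, against 1.80% of all, which says only that these letters are not in this window. The motifs were searched independently of each other. The following 30-base windows are shown because they hold the letters TTTGAA in genes from each of the functional groups described below. They run 5′ to 3′ on the gene's strand, with the motif, or its reverse complement in Top2a, in capitals.
Cdk1 (chr10:69352910-69352939, minus strand): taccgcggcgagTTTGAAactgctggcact
Ccnb2 (chr9:70421533-70421562, minus strand): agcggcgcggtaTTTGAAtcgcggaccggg
Cdc20 (chr4:118437344-118437373, minus strand): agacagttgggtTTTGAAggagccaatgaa
Plk1 (chr7:122159453-122159482, plus strand): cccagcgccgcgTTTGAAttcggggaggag
Prc1 (chr7:80294434-80294463, plus strand): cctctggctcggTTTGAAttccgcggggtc
Racgap1 (chr15:99651634-99651663, minus strand): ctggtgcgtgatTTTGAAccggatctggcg
Cenpa (chr5:30666890-30666919, plus strand): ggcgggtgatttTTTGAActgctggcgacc
Hmgb2 (chr8:57511801-57511830, plus strand): ggactctccgggTTTGAAtaatcctccaca
Top2a (chr11:99024195-99024224, minus strand): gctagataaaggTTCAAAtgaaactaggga
The motif printed began at position -30 in Hmgb2, -15 in Cdk1, -18 in Cdc20 and 16 in Cenpa, counted from 0 at the annotated start. Cks2 had no TTTGAA in this window and 4 matches to CCAAT. The 14 tested genes with TTTGAA near the start had a median log2 difference between anergic and control cells of -0.17, with 6 of them higher in anergic cells. The 5 without it had a median of -0.36. Over all genes tested, those 282 with the motif had a median of -0.09 and the others -0.08.

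The study asked which genes differ between the anergic and the resting clone. None of the 26 mitosis genes passed the test in limma after Benjamini-Hochberg adjustment at 0.05, where 121 of 5583 genes did (2.17%), 74 higher and 47 lower in anergic cells (47 and 13 with each array centred on its median). At an unadjusted p under 0.05 there were 3 of the 26, against 12.7% of all genes. These 3, Hmgb2, Prc1 and Cks2, were all lower in anergic cells, which is 11.5% of the 26, where 6.38% of all genes met the same rule. By sign, 11 of the 26 were higher and 15 lower, and 42.3% were higher against 41.9% of all genes. The groups did not overlap for 11 of the 26, against 41.3% of all genes. Of these, 8 were lower in anergic cells, or 30.8% of the 26 against 24.0% of all genes, and 3 were higher, or 11.5% against 17.3%. The median log2 difference of the 26 was -0.18, beside -0.09 for all genes tested. With quantile normalization the medians were -0.06 and -0.03, and with the stricter filter at the 60th percentile, which left 14 of the genes, -0.05 and -0.06. Centring, which moves every gene by the same amount, gave -0.08 and 0.02. The share of genes higher by sign and the share without overlap were close to those of all genes. For the genes that were lower, fewer cycling cells and less transcript per cell cannot be told apart in RNA from whole cultures.

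The intervals show what the comparison could have seen. For 23 of the 26 genes the 95% interval of the log2 difference lay within -2 and 2, a 4-fold change in either direction, and for 7 it lay within -1 and 1. The 7 are Ccna2, Cks1b, Bub3, Mad2l1, Stmn1, Smc2 and Smc4. The smallest difference that passed among all genes was 0.98.

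**Figure D1:**
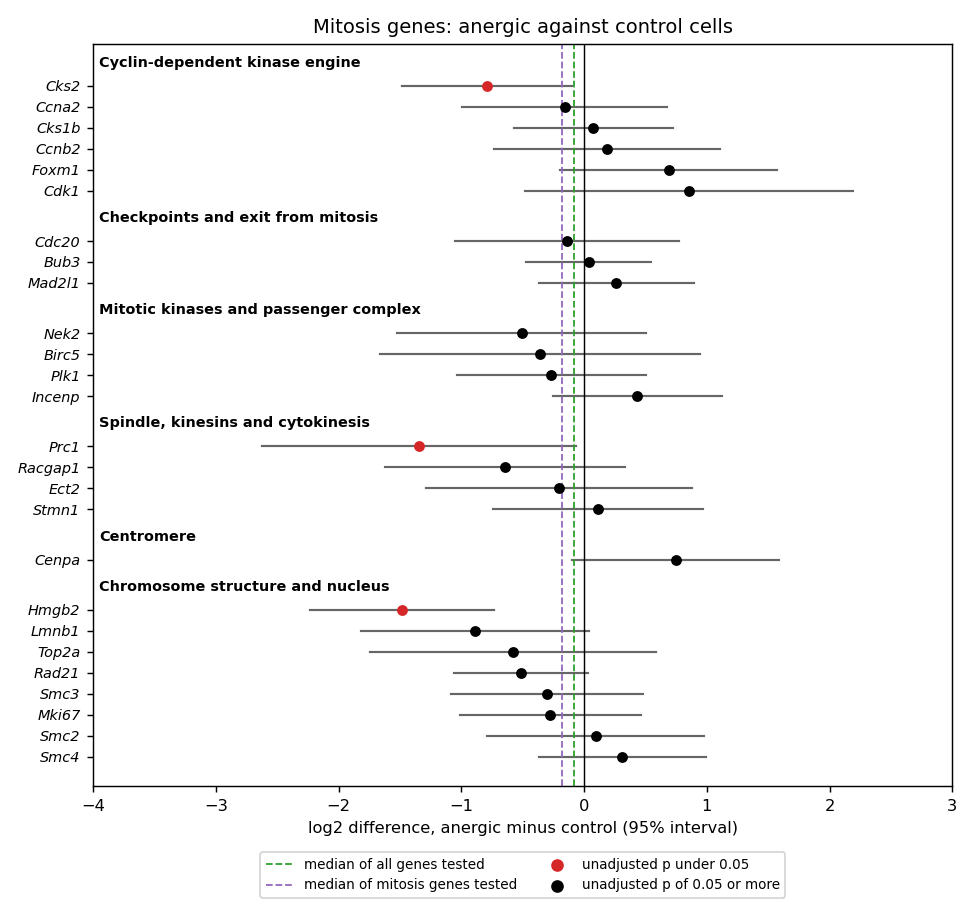
Log2 difference between anergic and control cells (horizontal axis) for the 26 tested mitosis genes, in groups by role, with 95% intervals from limma on 2 arrays per group. Red points mark the 3 genes with an unadjusted p under 0.05, Cks2, Prc1 and Hmgb2, and dashed lines mark the medians of these genes (-0.18) and of all genes tested (-0.09).

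Among the genes that fold, untangle and hold chromosomes, Hmgb2 came closest to the threshold. It encodes a DNA-bending protein abundant in dividing cells, and was at 609.0 and 1004 on the control arrays and 289.7 and 235.1 on the anergic arrays. Both anergic arrays thus lay below both control arrays. The log2 difference was -1.48 ± 0.33 (SE), a fold of 2.80 with n = 2 per group, and limma gave adjusted p = 0.0577. By p it ranked 129 among 5583 genes, of which 121 were called. Without control array 1 it passed (-1.83, limma adjusted p = 0.00202), while without control array 2 it was at -1.14 (limma adjusted p = 0.147). Its single probe set carries the letter r, which the maker used for sets in which some probe selection rules were dropped.

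The cohesin and condensin subunits showed no common direction. Rad21, the cohesin subunit that separase cuts to free the sister chromatids, was at 2510 and 3387 in control and at 2056 and 2006 in anergic cells. The groups did not overlap, and the log2 difference was -0.52 ± 0.25 (SE, limma adjusted p = 0.432). Its ring partner Smc3 was at 392.3 and 561.2 in control and 291.9 and 479.9 in anergic cells, which overlap (-0.30 ± 0.35, SE). The condensin pair Smc2 and Smc4, which compact the chromosomes, had differences of 0.09 and 0.31. Smc4 was at 1162 and 1741 in control and at 1419 and 2215 in anergic cells, with array 2 above array 1 in both groups.

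Of the other nuclear genes, Lmnb1, which encodes the lamin B1 of the nuclear envelope, was at 276.1 and 191.2 in control and 96.2 and 127.0 in anergic cells, without overlap (-0.89 ± 0.42, SE, limma adjusted p = 0.423). Top2a, the topoisomerase that untangles sister chromatids, was at 102.5 and 211.5 in control and 59.6 and 130.4 in anergic cells. Its groups overlapped and its difference was -0.58 ± 0.52 (SE). Mki67, the gene of the proliferation marker Ki-67, was at 304.1 and 412.3 against 288.2 and 287.3, a difference of -0.28 ± 0.33 (SE, limma adjusted p = 0.85). This probe set of Mki67 thus had signal in both groups, which did not overlap, with an interval from -1.01 to 0.46. A further probe set of Mki67 was at 230.7 and 261.9 in control and 175.5 and 322.5 in anergic cells, with overlap (-0.04).

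The cyclin-dependent kinase engine held genes on both sides. Cks2, a small subunit that binds CDK1, was at 2404 and 1395 in control and 1209 and 902.7 in anergic cells. The anergic arrays lay below the control arrays, by -0.79 ± 0.31 (SE, limma adjusted p = 0.31). Its relative Cks1b, which also serves the ubiquitin ligase that degrades p27, was at 552.6 and 441.4 in control and 533.2 and 512.1 in anergic cells, a difference of 0.08 ± 0.29 (SE). Cdk1 itself differed more between the control arrays than between the groups. It was at 55.0 and 274.2 in control and 184.2 and 361.1 in anergic cells (0.85 ± 0.60, SE), and the interval ran from -0.48 to 2.19. Foxm1, the transcription factor that activates many of these genes, was at 341.2 and 781.4 in control and 686.5 and 1061 in anergic cells (0.69 ± 0.39, SE, limma adjusted p = 0.548). On both of these genes control array 1 was the lowest of the 4. A further probe set of Foxm1 was low on every array, at 11.2 and 14.8 in control and 11.9 and 17.4 in anergic cells (0.05). With the mean of all its probe sets the difference of Foxm1 was 0.37. The cyclin genes Ccna2 and Ccnb2 had differences of -0.16 and 0.19, and the groups overlapped for both.

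The 3 checkpoint genes that could be tested had log2 differences from -0.14 to 0.26. Mad2l1, the inhibitor that the checkpoint places on Cdc20, was at 586.1 and 471.8 in control and 643.3 and 630.2 in anergic cells. The anergic arrays were the higher, by 0.26 ± 0.28 (SE, interval -0.37 to 0.89, limma adjusted p = 0.821). Bub3, which docks the checkpoint kinases at kinetochores, was at 3135 and 3008 in control and 2890 and 3438 in anergic cells, with overlap (0.04 ± 0.23, SE, interval -0.47 to 0.55). Cdc20, the activator of the anaphase-promoting complex, was at 246.1 and 332.8 against 175.0 and 371.5. Its anergic arrays were thus both the lowest and the highest (-0.14 ± 0.41, SE, interval -1.06 to 0.77).

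Among the mitotic kinases and the passenger complex, Incenp, the scaffold of Aurora B, was at 479.7 and 338.5 in control and 517.7 and 592.9 in anergic cells. The anergic arrays lay above the control arrays (0.43 ± 0.31, SE, limma adjusted p = 0.666), but a further probe set of Incenp showed -0.17. Plk1, the Polo kinase of mitotic entry and spindle assembly, was at 301.3 and 312.1 in control and 212.1 and 294.2 in anergic cells, without overlap (-0.27 ± 0.34, SE). Birc5, the survivin gene, was at 120.9 and 173.6 in control and at 47.1 and 213.1 in anergic cells, where 1 array lay below and 1 above both controls (-0.36 ± 0.58, SE). Nek2, a centrosome kinase, was at 238.3 and 183.2 against 89.5 and 207.0, with 1 anergic array below both controls and 1 between them (-0.51 ± 0.45, SE). The centromeric histone gene Cenpa was at 150.5 and 143.0 in control and 230.3 and 305.7 in anergic cells, above both controls (0.75 ± 0.38, SE, limma adjusted p = 0.478).

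Of the spindle and cytokinesis genes, Prc1, which bundles the microtubules of the central spindle, was at 153.2 and 486.8 in control and 54.4 and 145.4 in anergic cells. The higher anergic array lay just under the lower control array. The difference was -1.34 ± 0.57 (SE, limma adjusted p = 0.367). It passed without control array 1 (-2.10, limma adjusted p = 0.0146) and was -0.59 without control array 2 (limma adjusted p = 0.831). Racgap1, the GTPase activator of the same structure, was at 228.1 and 143.9 in control and 99.3 and 113.1 in anergic cells, without overlap (-0.64 ± 0.44, SE, limma adjusted p = 0.637). Ect2, the exchange factor that starts the cleavage furrow, had a difference of -0.21 ± 0.48 (SE), with overlap. Stmn1, the microtubule destabiliser stathmin, was at 207.3 and 241.0 against 187.1 and 316.4 (0.11 ± 0.38, SE).

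**Figure D2:**
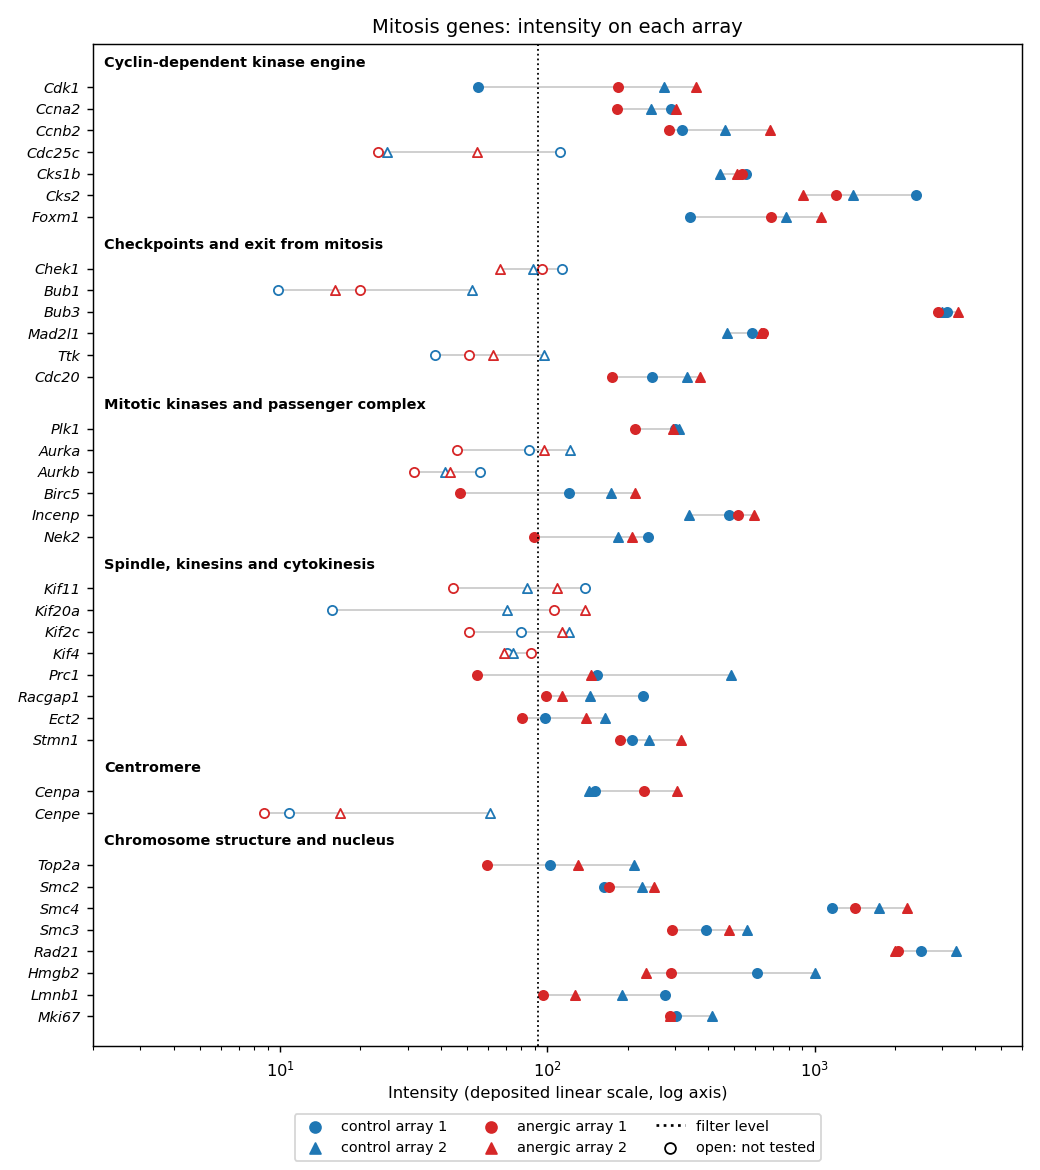
Intensity on the deposited linear scale (logarithmic horizontal axis) of the 37 measured mitosis genes on each of the 4 arrays, grouped by role, with circles for array 1 and triangles for array 2 of each group. Open symbols mark the 11 genes that were not tested, and the dotted line is the filter level as an intensity. Most genes have control (blue) and anergic (red) symbols interleaved. Of the tested genes, 8 have both red symbols to the left of both blue ones, Hmgb2, Lmnb1 and Cks2 among them, and 3 have both to the right.

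The filter kept genes whose mean log2 value was above 6.93. Just inside it were Top2a and Ect2, both at 7.19, and just outside it Chek1 at 6.89 and Kif11 at 6.88. The 11 genes not tested were Cdc25c, Chek1, Bub1, Ttk, Aurka, Aurkb, Kif11, Kif20a, Kif2c, Kif4 and Cenpe, with intensities from 8.7 to 138.7. They include both Aurora kinases, the checkpoint kinases Bub1 and Ttk, and the kinesin motors of the Kif genes and Cenpe. By sign 9 were lower and 2 higher in anergic cells, and the groups did not overlap for 1, Kif20a. That motor gene of cytokinesis was at 15.7 and 70.4 in control and 105.9 and 138.1 in anergic cells, but its other probe set ran the other way, at 44.6 and 105.1 against 33.0 and 16.9. With no filter none of the 11 passed in limma, the lowest adjusted p was 0.481, and 1 of them (Kif20a) had an unadjusted p under 0.05.

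Arrays of the same group differed for these genes by more than the median of all genes. Anergic array 2 was above anergic array 1 for 20 of the 26 tested genes (76.9%), against 57.4% of all genes. The median log2 difference between these arrays was 0.55 for the mitosis genes and 0.09 for all genes. With quantile normalization it was 0.30 and 0.01, with 19 of the 26 higher on array 2. The greatest gaps between the anergic arrays were those of Birc5 (1.67), Ccnb2 (1.17) and Prc1 (1.06). Between the control arrays the median difference, array 2 minus array 1, was 0.40 for the mitosis genes and 0.10 for all genes, and 0.11 and 0.00 with quantile normalization. Cdk1 (1.85), Prc1 (1.50) and Foxm1 (1.13) stood farthest apart there. Anergic array 1 was the lowest of the 4 arrays for 14 of the 26 genes, or 53.8%, against 34.8% of all genes, and anergic array 2 the highest for 12 of them, or 46.2%, against 24.0%. For 20 of the 26 genes the arrays of at least 1 group lay farther apart than the group means, which held for 69.6% of all genes.

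**Figure D3:**
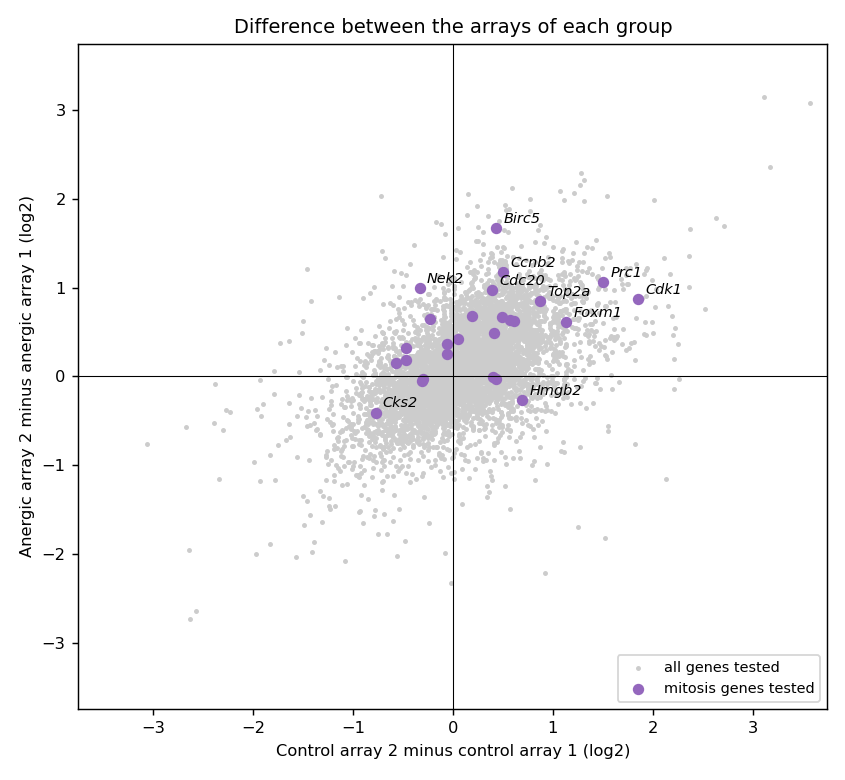
Difference between the arrays of a group, as log2 of array 2 minus array 1, in control cells (horizontal axis) and anergic cells (vertical axis), for all 5583 genes tested (grey) and the 26 tested mitosis genes (purple). The vertical spread of the purple points is centred above 0, at a median of 0.55, with Birc5 at the top and Cdk1 and Prc1 at the right.

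The summary of these genes depended on single arrays. Without anergic array 1 their median log2 difference was 0.11, with 17 of 29 tested genes higher in anergic cells. Without anergic array 2 it was -0.48, with 6 of 27 higher. The median of all genes was 0.01 and -0.15 in the same fits. Without control array 1 or 2 the median was -0.29 or -0.07. In these fits the lone array of a group is assumed to vary like those of the other group. Without control array 2 Foxm1 was at 1.25, Cks2 at -1.18 and Cdk1 at 1.78. Without control array 1 they were at 0.12, -0.41 and -0.07. With anergic array 1 or anergic array 2 left out, 0 of the mitosis genes passed in limma.

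**Figure D4:**
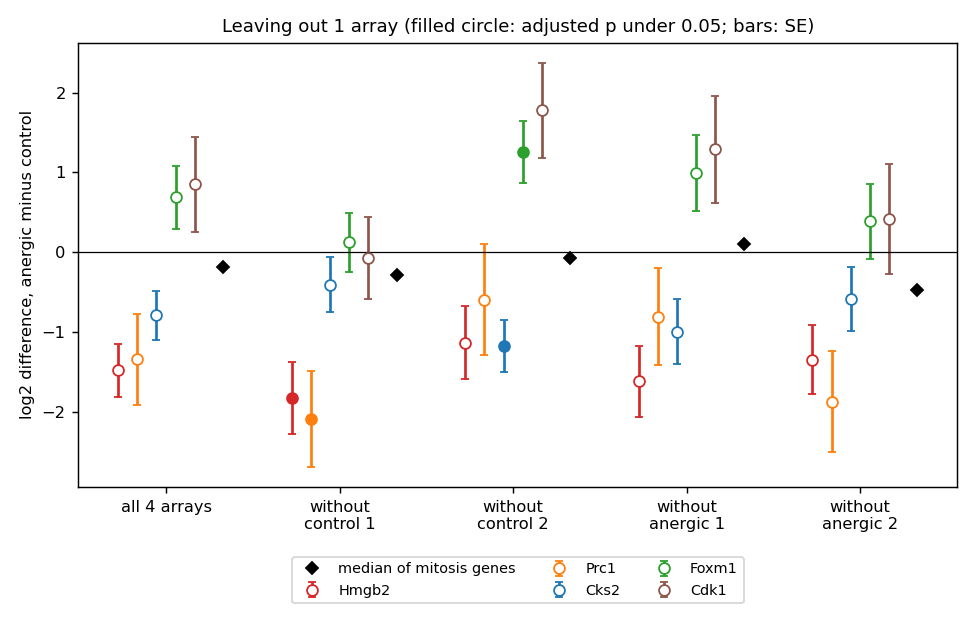
Log2 difference between anergic and control cells (vertical axis) for Hmgb2, Prc1, Cks2, Foxm1 and Cdk1 with all 4 arrays and with each array left out in turn, with the SE from limma as bars and filled circles where the adjusted p was under 0.05. Black diamonds mark the median of the tested mitosis genes, which lies at 0.11 without anergic array 1 and at -0.48 without anergic array 2.

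Where a gene had several probe sets, they did not always point the same way. Of 10 such genes, 6 had all probe sets on the same side of 0 and 4 did not (Bub1, Incenp, Kif20a and Stmn1). The differing probe sets of Bub1 (2.7 to 5.8) and Stmn1 (14.8 to 30.5) lay below the filter. Both of Kif20a did too, while both of Incenp were tested. Over probe sets, 0 of the 30 tested for these genes passed in limma, against 1.34% of all, and 2 had an unadjusted p under 0.05, against 11.3% of all.

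Genes with related roles gave the same count. Of 110 other mitosis genes 59 were tested, and 0 passed in limma. At an unadjusted p under 0.05 there were 2 higher and 3 lower, or 8.47% of the 59 against 12.7% of all genes, and the median was -0.11. All 5 passed with the replicate number as a block, which called 707 of all genes. The 3 were Anapc5, a subunit of the anaphase-promoting complex (-0.94 ± 0.23, SE), the chromokinesin gene Kif22 (-1.21 ± 0.32) and the Polo-like kinase gene Plk2 (-1.93 ± 0.49), and the 2 were the tubulin gene Tubb5 (0.96 ± 0.22) and Ensa, an inhibitor of the phosphatase PP2A (0.89 ± 0.34). Limma gave Tubb5 adjusted p = 0.065. The probe sets used for Tubb5 and Kif22 carry the letter r, as that of Hmgb2 does. Tubb5 was at 2898 and 2585 in control and at 5562 and 5156 in anergic cells, apart and close within each group. Leaving out 1 array let up to 4 of these genes pass, among them Tubb5 and Plk2 without either control array. By part of the machinery, the medians were -0.16 for 4 kinetochore genes, -0.31 for 12 of the anaphase-promoting complex, -0.14 for 7 of cohesin, condensin and separase, -0.08 for 22 spindle motors and microtubule genes and 0.02 for 14 regulators of mitotic entry.

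The regulators upstream of these genes were measured too. Of 8 tested genes of the E2F, retinoblastoma and MuvB list, 0 passed in limma and 1 had an unadjusted p under 0.05, the p107 gene Rbl1, a repressor of cell cycle genes. Rbl1 was at 169.5 and 237.4 in control and 550.5 and 485.5 in anergic cells (1.25 ± 0.33, SE, limma adjusted p = 0.11), and it passed without control array 2 and with the block. Of 29 DNA replication genes, which act in the S phase, 0 passed in limma and 6 had an unadjusted p under 0.05, all lower in anergic cells, or 20.7% of the 29 against 6.38% of all genes. Their median was -0.39, and 23 of the 29 (79.3%) were lower by sign, against 58.1% of all genes. With the block 7 of the 29 passed, all lower, where 359 of all 5583 genes passed as lower. Pola1, of the polymerase that starts new strands, passed without control array 1. Among regulators of entry into the cycle, Myc fell by 2.08 on the log2 scale (limma adjusted p = 0.0251), but not without anergic array 1 (-1.85, limma adjusted p = 0.125) or control array 2 (-1.86, limma adjusted p = 0.0552). The log2 difference of the kinase gene Cdk4 was -0.42. The cyclin gene Ccnd3 differed by 0.05, and Ccnd2 by 1.44 (limma adjusted p = 0.116), which passed without control array 2 (2.03) but not without control array 1 (0.84, limma adjusted p = 0.156). The inhibitor gene Cdkn1a, at 645.5 and 471.9 in control and 1328 and 1075 in anergic cells, differed by 1.07 (limma adjusted p = 0.108) and passed without control array 1 (1.29, limma adjusted p = 0.0131) but not without control array 2 (0.86, limma adjusted p = 0.163). The p27 gene Cdkn1b lay below the filter, at 42.9 to 74.9, and Cdk6 is not analysed here.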

How the data were processed

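Intensities of 12488 probe sets on 4 arrays, 2 per group, were taken as deposited by the authors, on a linear scale with a trimmed mean of 500.3 on each array. The scanner software and summary method were not given in the sources used here. Gene names came from GEO's platform annotation, and for all 49 probe sets of the mitosis genes the gene ID gave the same symbol in RefSeq (GRCm38.p6). Values were transformed as log2(value + 29.15), where the added amount is the 20th percentile of an array (median of 4), so differences of low genes are understated. Genes with a mean log2 value above the 40th percentile of all probe sets other than 66 controls were tested with limma 3.58.1 in R 4.3.3 (eBayes with an intensity trend, two-sided, Benjamini-Hochberg over all 5583 genes, threshold 0.05). The main fit, on all 4 arrays without a block, had 2 residual and 7.74 prior degrees of freedom. Fits with the block or without an array had fewer residual degrees of freedom. Their p-values therefore rest more on the spread shared across genes. With 2 arrays a group the smallest p of an exact two-sided permutation test is 0.333. No depth is defined for arrays, and their number limits the precision.

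All 40 genes were to be named. Values on every array were to be given for genes with an unadjusted p under 0.05 and, in each role group, for the gene with the smallest p and that with the highest mean. Of each further list the up to 3 genes with the smallest p could be named, with Myc, Cdkn1a, Cdkn1b, Ccnd2, Ccnd3, Cdk4 and Cdk6. Other genes whose values are given on every array were chosen after those were seen. The genes and lists were chosen with earlier results of these data known. The limma script was tested on simulated data.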

Additional observations from a re-analysis of the deposited data

How the results depend on the processing

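Alternatives were another pseudocount (1 or 161.2), no filter or one at the 60th percentile, quantile normalization or centring, other ways to represent a gene, no intensity trend, and leaving out an array. None of these but the last let a mitosis gene pass, and 14 of the 26 genes kept their sign under every alternative that tested them. Leaving out an array gave 0 to 2 mitosis genes called, 57 to 282 of all genes, 6 to 17 mitosis genes higher and 16 to 21 without overlap, where a group of 1 array overlaps less by construction. Over all genes, centring called 60 and no intensity trend 44, against 121. With the stricter filter 14 mitosis genes were tested, 7 of them higher and 7 without overlap. No label says that the array numbers pair the arrays, although array 2 minus array 1 correlated between the groups (r = 0.52 across genes, which are not independent). With the replicate number as a block limma called 707 of 5583 genes and 4 of the 26 mitosis genes, so the shares were similar. Hmgb2, Prc1 and Cks2 were lower and Foxm1 higher, with limma adjusted p-values of 0.000482, 0.00543, 0.0114 and 0.0418. The low signal of the 11 genes not tested limits what can be said of them.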
